A study of Mus musculus with 3 samples.

Results

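The STAT genes encode latent transcription factors of the cytoplasm, and 6 of them are described here: Stat2, Stat3, Stat4, Stat5a, Stat5b and Stat6. They were found by gene symbol in GENCODE M21, a mouse gene annotation, and make up 6 of the 55536 genes and 41 of the 141862 transcripts of the deposited tables. A cytokine receptor that binds its ligand activates JAK kinases, which phosphorylate a tyrosine near the C terminus of a STAT protein. The phosphorylated proteins pair up, enter the nucleus and bind DNA at short inverted repeats. In helper T cells Stat4 is known for signals from interleukin 12, Stat6 for interleukin 4, Stat3 for interleukins 6 and 21, Stat5a and Stat5b for interleukins 2 and 7, and Stat2 for type I interferon.

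Polyadenylated RNA was sequenced from effector memory helper T cells (CD4-positive, alpha-beta receptor) of 1 male C57BL/6J mouse, an adult aged 7 months. The labels give 1 group, which holds 3 libraries of a single biological replicate, called library 1, 2 and 3 here after their technical replicate numbers, and no treatment or second condition. The sources used here do not say how the cells were isolated. Gene counts summed to 16251564, 14878641 and 14152590 in libraries 1, 2 and 3. Levels are deposited TPM, a length-normalised share of all transcripts, as mean ± SD over the 3 libraries, so every SD and p-value below measures technical spread within 1 mouse.

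The labelled cell type was checked against marker genes. All 5 markers of CD4 alpha-beta T cells reached 1 TPM, and their summed level ran from 4900 to 5546 TPM across libraries. Markers of gamma-delta T cells, NK cells, B cells, macrophages, neutrophils and regulatory T cells each stayed under 1 TPM, Trdc had 0 counts and Cd8a had 3 counts over all libraries, and a count of 0 allows up to 3 counts, or 0.185 to 0.212 CPM (a gene's share of counts, not divided by length), for counting error only. Of the other lists, Cd8b1 stood at 4.16 ± 0.887 TPM and Xcr1 at 1.77 ± 0.450 TPM, while Ccr7, a homing receptor, reached 239 ± 10.2 TPM. In bulk RNA, fewer cells that express a gene and less RNA of it per cell cannot be told apart.

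Stat4 was the most abundant of the 6 genes and Stat2 the least, with a 16.7-fold gap between them. All 6 genes exceeded 1 TPM, the level reached by 47.7% of 22028 protein-coding genes, and 5 of them exceeded 100 TPM, the level reached by 7.82%. Together they held 1288, 1361 and 1246 TPM in libraries 1, 2 and 3, which was 0.130% ± 0.00581 of all TPM. Of that sum Stat4 took 31.8%, Stat3 22.8%, Stat5b 17.8%, Stat6 16.4%, Stat5a 9.30% and Stat2 1.91%.

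Stat4, the transducer of interleukin 12 that drives interferon gamma in helper T cells, lies at chr1:51987148-52107189 on the plus strand of GRCm38/mm10. Its level was 413, 428 and 396 TPM in libraries 1, 2 and 3 (412 ± 16.1), rank 338 among protein-coding genes. The lowest Stat4 library stood above the highest library of every other member.

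Stat3, which serves interleukins 6, 21 and 27, lies at chr11:100885098-100939540 on the minus strand. It measured 288, 304 and 294 TPM (295 ± 7.80), rank 473, and its coefficient of variation of 2.64% in TPM was the smallest of the 6. That held for TPM only: in CPM of expected counts Stat3 stood at 605 ± 47.3, a wider spread than the 539 ± 9.64 of Stat4. Its 3 libraries lay between those of Stat4 and Stat5b with no overlap.

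Stat5b lies at chr11:100780731-100850724 on the minus strand and encodes one of 2 close relatives that answer interleukins 2, 7 and 15. It measured 222, 251 and 221 TPM (232 ± 16.8), rank 645. Stat6, the transducer of interleukin 4, lies at chr10:127642986-127660957 on the plus strand and measured 212, 236 and 193 TPM (214 ± 21.3), rank 710. The libraries of these 2 genes overlapped, although Stat5b was the higher in each of the 3 libraries.

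Stat5a, at chr11:100859351-100885169 on the plus strand, measured 126, 117 and 119 TPM (121 ± 4.84), rank 1413. Stat5b exceeded it in every library. Stat2, at chr10:128270559-128292849 on the plus strand, joins Irf9 in the complex that reads type I interferon, and measured 26.6, 25.4 and 22.5 TPM (24.8 ± 2.11), rank 5328. It was the only member under 100 TPM and sat close to the median of 25.5 TPM over protein-coding genes at 1 TPM or more.

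Of the 15 pairs that the 6 genes form, all 15 had the same order in all 3 libraries, and 14 had library ranges that did not overlap. Between neighbours, Stat4 stood 1.40 ± 0.0455-fold above Stat3, and Stat3 1.28 ± 0.0616-fold above Stat5b. Stat5b exceeded Stat6 by 1.09 ± 0.0514-fold, the smallest step between neighbours. The ratios within libraries 1, 2 and 3 were 1.05, 1.06 and 1.14, all above 1, although the library ranges of these 2 genes overlapped. Larger steps separated Stat6 from Stat5a, 1.78 ± 0.210-fold, and Stat5a from Stat2, 4.87 ± 0.356-fold. No test was run on this order, because a sign-flip test over 3 libraries cannot go below an exact p of 0.25.

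The order depends on dividing by length. In CPM of expected counts, the deposited estimates that share ambiguous reads among genes, Stat5b led at 657 ± 57.0, followed by Stat3 at 605 ± 47.3 and Stat4 at 539 ± 9.64. These 3 genes thus ran in the reverse of their TPM order, and the other 3 kept theirs, with Stat6 at 410.0 ± 34.6, Stat5a at 251 ± 6.47 and Stat2 at 49.0 ± 3.32. The deposited effective length, a mean over a gene's models, was longest for Stat5b, between 4491 and 4837 bases by library, and shortest for Stat4, between 2121 and 2158 bases.

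A second deposited gene table, of whole-number counts on the older annotation GENCODE M4, put Stat4 first at 731 ± 13.6 CPM and Stat3 next at 649 ± 18.6. There Stat6, at 587 ± 33.0 CPM, stood above Stat5b at 498 ± 22.4, without division by length. Over genes with at least 100 counts the second table held a median of 50.5% to 51.3% of the expected counts, by library. It held 23.5% to 25.7% for Stat5b, 33.2% to 37.0% for Stat3 and 58.6% to 59.1% for Stat2. The reason for these unequal shares was not tested.

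**Figure D1:**
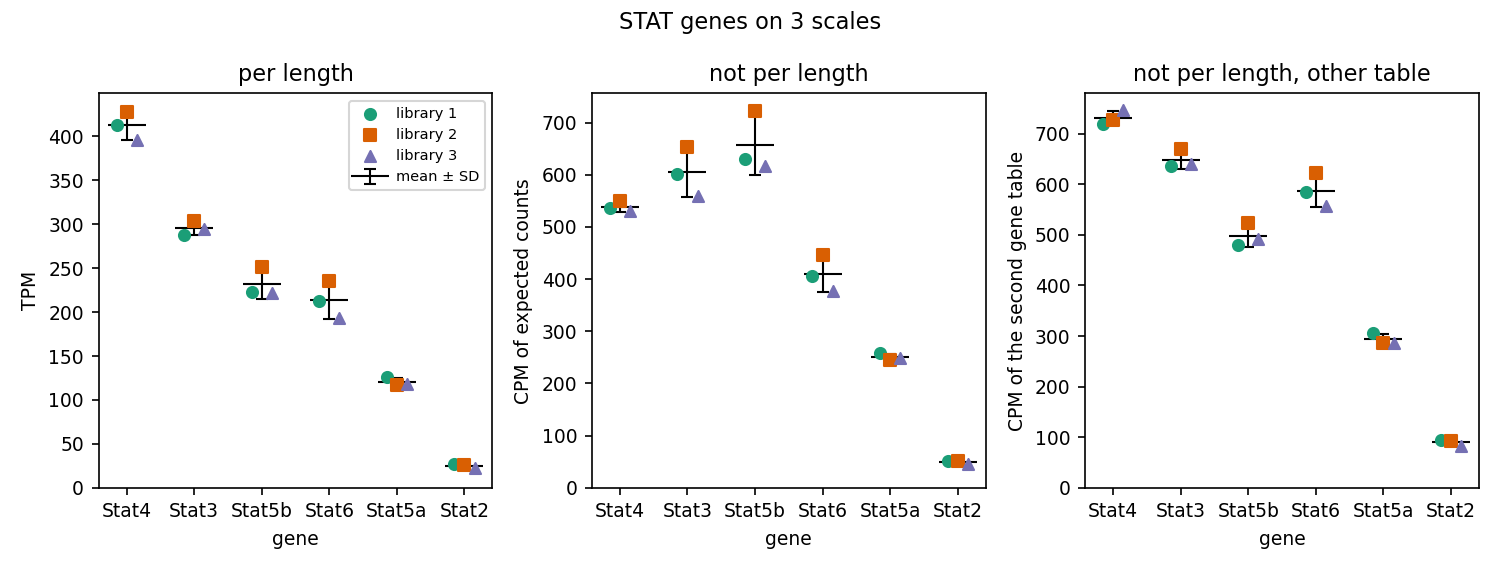
Level of each of the 6 STAT genes in TPM (left), in CPM of expected counts (middle) and in CPM of the second gene table (right), with 1 point per library, a bar at the mean and error bars of 1 SD over 3 libraries. Stat4 leads at 412 TPM, Stat5b leads in CPM of expected counts at 657, and Stat2 is lowest on all 3 scales.

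For each member the protein-coding gene with the most similar level was found, as the smallest value of the largest log2(TPM + 0.1) difference over 3 libraries. Stat4 ran closest to Slc3a2, an amino acid transporter chain (409 ± 11.02 TPM), and Stat3 to Capza1, an actin capping subunit (297 ± 16.6 TPM). Stat5b ran closest to Rpa2, a single-stranded DNA binding subunit (227 ± 21.2 TPM), and Stat6 to Vcp, an ATPase of protein turnover (215 ± 23.4 TPM). Stat5a ran closest to Osbpl9, a lipid binding protein (121 ± 4.84 TPM), and Stat2 to Polr2i, an RNA polymerase II subunit (24.9 ± 1.86 TPM). The largest log2 difference in any library ran from 0.02 for Stat2 to 0.06 for Stat3, and a match in level over 3 libraries of 1 mouse is a description only.

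The 6 genes lie in 3 places in the genome. Stat5b, Stat5a and Stat3 lie side by side within 158810 bases of chromosome 11, with the Stat5b and Stat5a starts facing away from each other 8626 bases apart and the 3′ ends of Stat5a and Stat3 overlapping by 72 bases. Stat6 and Stat2 lie 609601 bases apart on chromosome 10, and Stat6 overlaps the oppositely oriented Nab2 by 40 bases. The sources used here do not give the strand setting of the counting, so reads from such overlaps cannot be placed on one strand. These overlaps are short beside the genes' transcripts.

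Stat5a and Stat5b were the 2 members whose reads are hardest to tell apart. Their coding sequences were 90.7% identical where aligned, against 58.2% to 65.5% for the other 14 pairs. They shared 608 windows of 50 bases, a size taken from the deposited effective lengths, which are 49 bases shorter than the lengths, and no other member pair shared a window within coding sequence, although Stat3 and Stat5a shared 23 through their overlapping 3′ ends. The longest run common to both coding sequences is 324 bases, at coding bases 571 to 894 of both, and its first 300 are printed because a 50-base read inside it fits both genes:
Stat5a and Stat5b shared run: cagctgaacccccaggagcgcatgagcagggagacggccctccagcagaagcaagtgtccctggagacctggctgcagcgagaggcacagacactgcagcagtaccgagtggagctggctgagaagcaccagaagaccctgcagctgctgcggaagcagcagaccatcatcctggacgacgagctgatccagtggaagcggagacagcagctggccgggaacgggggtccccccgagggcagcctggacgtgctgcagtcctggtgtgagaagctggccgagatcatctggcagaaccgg
The deposited posterior SD of the count, a measure of this ambiguity, was 0.613% to 0.709% of the count for Stat5a and 0.235% to 0.286% for Stat5b. For the other 4 genes it was at most 0.0603%. The 1.93-fold ratio of Stat5b to Stat5a was far wider than this uncertainty.

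A different overlap touches Stat4. The noncoding gene Gm28177 shares its strand and 840 of the 3871 windows of Stat4, and was given 0.75, 0.75 and 0.61 TPM. Gm3940, a processed pseudogene on the opposite strand within Stat4, was given 30.6 ± 4.16 TPM. Stat6 shared no window with any other gene.

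Each gene was led by 1 transcript model in every library, but the lead ranged from a near monopoly in Stat6 to a split in Stat5b. Stat6-201 took 95.9%, 96.1% and 95.8% of Stat6 counts in libraries 1, 2 and 3, and Stat2-201 took 90.6%, 93.5% and 92.2% of Stat2 counts. A second full-length Stat2 model, Stat2-202, was given 0 counts in each library, yet it differs from Stat2-201 by 1 codon, and the posterior SD of its count was 45.2, 62.5 and 44.1 reads. At 5.50% to 8.19% of the Stat2 count, that uncertainty means the split between the 2 models was not detectable in these tables.

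**Figure D2:**
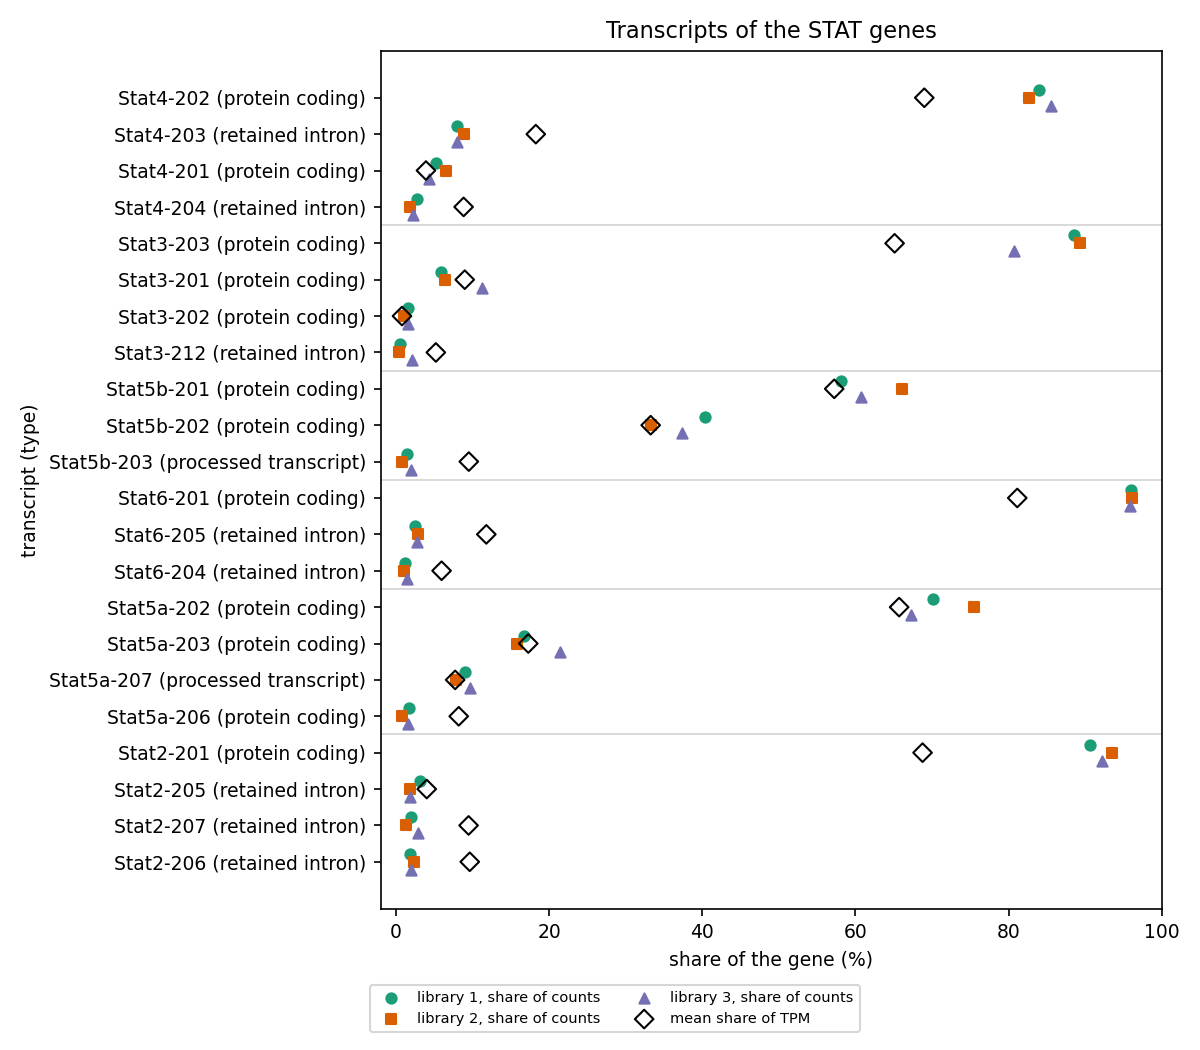
Share of each gene's expected counts by transcript model and library (filled points) and mean share of TPM (open diamonds), for models with at least 1% of their gene's counts. Stat6-201 lies near 96% of counts, Stat5b is split between Stat5b-201 and Stat5b-202, and short noncoding models have larger shares of TPM than of counts.

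Stat3 has alpha and beta forms that differ in their C termini. The alpha form carries the serine-phosphorylated transactivation tail, and the beta form replaces it with a short tail of its own after skipping 50 bases. Stat3-203, the alpha model with 770 codons, took 88.5%, 89.4% and 80.8% of Stat3 counts. The beta model Stat3-202, with 722 codons, took 1.55%, 1.09% and 1.61% of counts (1.42% ± 0.283). The exact (Clopper-Pearson) 95% interval for counting error ran from 1.32% to 1.82% in library 1, from 0.893% to 1.32% in library 2 and from 1.34% to 1.91% in library 3. In TPM the beta model stood at 2.32 ± 0.284, or 0.788% ± 0.115 of the gene. The skipped segment, chr11:100889541-100889590 on the minus strand of GRCm38, is printed in capitals with 20 bases on either side, because it alone sets the alpha tail apart from the beta tail:
Stat3-203 alpha: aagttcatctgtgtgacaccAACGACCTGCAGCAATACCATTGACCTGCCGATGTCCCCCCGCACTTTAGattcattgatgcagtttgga
Stat3-202 beta: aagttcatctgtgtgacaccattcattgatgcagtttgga
The segment covers codons 715 to 732 of the alpha form. Of the 5993 windows of Stat3-202, 1760 occur in no other Stat3 model, but most of these lie in a 3′ extension, since the model runs 1712 bases past the 3′ end of Stat3-203. Reads in that extension do not tell a beta tail from an alpha tail. The share given to Stat3-202 is therefore a share of this model, and how much of it comes from the beta junction and how much from the long 3′ end cannot be told apart in these tables.

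Another Stat3 model took a larger share in library 3 than in the other 2 libraries. Stat3-201 is an alpha form that lacks 3 bases at a splice junction and so has 769 codons, 1 serine codon fewer, just before the tyrosine that JAKs phosphorylate. It took 5.93% and 6.37% of Stat3 counts in libraries 1 and 2 and 11.2% in library 3. The exact 95% interval in library 3, 10.5% to 11.9%, lay above those of libraries 1 and 2, and the posterior SD was 0.894% to 1.44% of the gene count. The 3 bases, chr11:100893074-100893076 on the minus strand, are capitals in the first line:
Stat3-203: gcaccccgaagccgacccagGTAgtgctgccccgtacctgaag
Stat3-201: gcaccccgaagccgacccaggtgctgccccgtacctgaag
Only 44 of the 2878 windows of Stat3-201 occur in no other Stat3 model, and its 3′ end lies 1426 bases short of that of Stat3-203. The deposited tables therefore tell these 2 models apart by the junction, by their different start sites and by how reads spread over the last exon, and which of these moved in library 3 was not tested. Stat3-207, another coding model, was given 0 counts.

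Most Stat4 counts went to the model with the upstream start. Stat4-202, which begins 21095 bases upstream of Stat4-201 and encodes the same 748 codons, took 84.0%, 82.7% and 85.5% of Stat4 counts, whereas Stat4-201 took 5.22%, 6.52% and 4.32%. Retained-intron models of the gene, noncoding transcripts that keep intron sequence, took the rest, with Stat4-203 at 8.02%, 8.92% and 7.96%. The promoters of both starts are printed from the RefSeq table (GRCm38.p6), 250 bases upstream of the start, on the plus strand, because the model of the first took 84.0% ± 1.39 of counts and that of the second 5.35% ± 1.11:
Stat4 upstream start, chr1:51986898-51987147: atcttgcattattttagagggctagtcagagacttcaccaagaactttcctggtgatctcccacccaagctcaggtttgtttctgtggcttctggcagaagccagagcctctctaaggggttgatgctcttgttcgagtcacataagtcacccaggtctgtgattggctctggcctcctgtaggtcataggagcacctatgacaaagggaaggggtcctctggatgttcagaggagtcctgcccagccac
Stat4 downstream start, chr1:52007990-52008239: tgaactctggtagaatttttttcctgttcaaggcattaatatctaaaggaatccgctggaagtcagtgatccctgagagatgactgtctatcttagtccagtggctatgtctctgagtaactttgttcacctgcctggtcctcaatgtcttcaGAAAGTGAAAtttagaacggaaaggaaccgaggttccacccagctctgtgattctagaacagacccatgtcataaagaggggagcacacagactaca
Capitals mark GAAANNGAAA, the core of the element bound by interferon-activated complexes, 97 bases before the downstream start. The upstream window has no match, and with its first 50 transcribed bases it holds 2 CpG dinucleotides, against a median of 7 over 32851 such windows.

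Stat5b was split between 2 starts that lie 28196 bases apart and lead to the same 786 codons. The upstream-start model Stat5b-201 took 58.1%, 66.0% and 60.7% of Stat5b counts, and the downstream-start model Stat5b-202 took 40.4%, 33.3% and 37.4%. Stat5b-202 had 475 windows of its own and Stat5b-201 had 186, and the posterior SD of each was 2.59% to 2.96% of the gene count. The lead of Stat5b-201 in each library was wider than that.

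Stat5a also had 2 coding models of note, with starts 828 bases apart. Stat5a-202 took 70.1%, 75.4% and 67.3% of Stat5a counts, and Stat5a-203 took 16.8%, 15.8% and 21.5%. The noncoding model Stat5a-207 took 9.07%, 7.89% and 9.62%. Stat5a-203 lacks a 52-base exon, chr11:100881738-100881789 on the plus strand, shown in capitals because it holds the codon of the tyrosine that JAKs phosphorylate:
Stat5a-202: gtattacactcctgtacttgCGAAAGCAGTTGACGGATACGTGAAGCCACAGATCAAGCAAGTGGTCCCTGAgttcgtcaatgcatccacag
Stat5a-203: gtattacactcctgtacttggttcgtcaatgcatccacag
The exon covers codons 688 to 705 of Stat5a-202, and without it the reading frame shifts, so that the model encodes 797 codons in place of 793 with a different C terminus. The posterior SD of Stat5a-203 was 4.18% to 6.66% of the gene count, and 49 of its 3556 windows were its own. The share of Stat5a-203 exceeded that SD in all 3 libraries, but library 3 differed from the others by less than its own SD. Stat5a-203 differs from Stat5a-202 by its downstream start as well as by the exon. Its share is a share of this model, and the parts that come from the skipped exon and from the start cannot be told apart in these tables.

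The downstream starts of Stat5a and Stat5b have related promoters. The aligned stretch lies just before the RefSeq start of Stat5a and runs across that of Stat5b. Over its 100 aligned bases, gaps not counted, 83.0% were identical, on chr11:100860381-100860482 (plus strand, Stat5a) and chr11:100822563-100822664 (minus strand, Stat5b), with identical bases in capitals:
Stat5a downstream start: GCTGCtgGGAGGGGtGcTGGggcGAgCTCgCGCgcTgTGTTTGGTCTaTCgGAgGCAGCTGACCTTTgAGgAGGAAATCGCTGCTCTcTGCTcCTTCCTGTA
Stat5b downstream start: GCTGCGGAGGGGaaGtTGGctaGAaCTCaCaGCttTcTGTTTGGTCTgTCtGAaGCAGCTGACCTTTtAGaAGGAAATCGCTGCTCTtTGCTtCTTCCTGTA
The upstream Stat5b window was the richest in GC of the 9 member windows, at 82.7% GC with 50 CpG dinucleotides, against a median of 52.7% GC over all windows and 69.7% at the 90th percentile. The downstream Stat5b window had 47.3% GC and 7 CpG dinucleotides. The Stat5a windows had 57.7% GC upstream and 67.7% GC downstream.

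The same 300-base windows were searched on both strands for 3 motifs, from 250 bases before to 50 bases after each RefSeq start. TTCNNNGAA, the repeat bound by most STAT dimers, was in 0 of the 9 windows of the 6 members and in 8.30% of all 32851 windows. TTCNNNNGAA, the wider repeat preferred by Stat6, was in 1 member window, that of Stat2, and in 6.95% of all windows. GAAANNGAAA was in 2 member windows, those of Stat2 and of the Stat4 downstream start, and in 3.44% of all windows. The Stat2 window is printed because it alone held 2 of these motifs, which do not overlap each other:
Stat2 promoter, chr10:128270248-128270497: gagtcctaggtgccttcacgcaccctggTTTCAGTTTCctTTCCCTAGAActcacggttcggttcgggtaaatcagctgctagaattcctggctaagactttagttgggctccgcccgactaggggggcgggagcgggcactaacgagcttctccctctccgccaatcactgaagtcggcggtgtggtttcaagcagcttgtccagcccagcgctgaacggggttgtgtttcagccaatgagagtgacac
The first capitals are GAAANNGAAA on the opposite strand, 222 bases before the start, and the second are TTCNNNNGAA, 210 bases before it. Stat2 is itself known as an interferon-induced gene. Of the 5 windows found for the Stat2 and Irf9 target list, 4 held GAAANNGAAA, and Isg15 had 3 overlapping copies between 66 and 78 bases before its start. Cish, a known Stat5 target, had TTCNNNGAA at its start and again 11 bases after it. Over the windows of each target list TTCNNNGAA was in 2 of 7 for Stat5a and Stat5b, 3 of 9 for Stat3, 3 of 10 for Stat4, 1 of 6 for Stat6 and 1 of 5 for Stat2 with Irf9, and GAAANNGAAA was also in 2 of the 6 Stat6 target windows. TTCNNNNGAA was in 3 of 10 for Stat4, 1 of 6 for Stat6, 1 of 5 for Stat2 with Irf9, 0 of 9 for Stat3 and 0 of 7 for Stat5a and Stat5b. A match is a description of letters, not evidence of binding.

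Retained-intron models raised the TPM of several members more than their counts, because these models are short. They held 27.1% of Stat4 TPM but 10.6% of Stat4 counts, 31.2% against 7.91% for Stat2, 24.1% against 4.35% for Stat3 and 18.5% against 3.99% for Stat6. Over 5602 protein-coding genes with such a model and a mean count of at least 100, the median was 13.0% of TPM and 7.54% of counts, so these 4 genes were above the median in TPM while Stat3 and Stat6 were below it in counts. With coding models only, a setting chosen after seeing the data, the levels became 301 ± 10.97 TPM for Stat4, 221 ± 23.3 for Stat3, 210.0 ± 24.6 for Stat5b, 174 ± 18.7 for Stat6, 111 ± 3.87 for Stat5a and 17.1 ± 1.57 for Stat2. The order of the 6 genes did not change.

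The 3 libraries differed for most members beyond counting noise, by modest amounts. The same was true of 57.2% of all genes tested and 72.9% of those with a mean count of at least 500. Counts scaled by TMM, a normalisation of library size, gave Stat3 602, 669 and 545 CPM in libraries 1, 2 and 3, a highest-to-lowest ratio of 1.23. Stat5b stood at 631, 739 and 603 CPM, a ratio of 1.23, and Stat6 at 407, 457 and 368 CPM, a ratio of 1.24. Library 2 stood apart from the other 2 over all genes, since the library test described next called 27.5% of genes between libraries 1 and 3, 42.3% between 1 and 2 and 43.8% between 2 and 3. Among the members, library 3 was lowest for all 6, and library 2 was highest for all but Stat5a, which was highest in library 1.

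Stat4 stood at 537, 562 and 517 CPM on this scale, a ratio of 1.09, Stat2 at 50.6, 52.5 and 44.1, a ratio of 1.19, and Stat5a at 258, 251 and 243, a ratio of 1.06. The median ratio over 13949 genes tested was 1.27, and over the 5409 genes with a mean count of at least 500 it was 1.16. By a chi-square test of equal shares between libraries, Benjamini-Hochberg adjusted over all 13949 genes, 5 of the 6 members passed 0.05, against 57.2% of all genes and 72.9% of those with a mean count of at least 500. The adjusted p was 2.74e-49 for Stat5b, 5.98e-39 for Stat3, 1.38e-29 for Stat6, 5.70e-06 for Stat4, 0.00737 for Stat2 and 0.0534 for Stat5a.

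Most genes exceeded counting noise in this test, with a median inflation of 6.45 in chi-square. After division of each chi-square by it, Stat5b (adjusted p = 1.37e-06), Stat3 (4.14e-05) and Stat6 (0.000865) passed, 3 of 6 members against 4.45% of all genes and 10.6% of those with a mean count of at least 500. The adjusted p was then 0.670 for Stat4, 0.974 for Stat2 and 1.00 for Stat5a. The calls of Stat4, Stat2 and Stat5a changed under several settings. With total counts as library sizes the adjusted p was 0.124 for Stat4 and 0.0679 for Stat2, and with DESeq2 size factors it was 0.0236 for Stat5a. Without library 2 the adjusted p was 0.0578 for Stat4 and 0.0340 for Stat5a, while Stat3 (4.62e-09), Stat6 (1.26e-06), Stat5b (0.00965) and Stat2 (0.0360) passed. Without library 3 it was 0.589 for Stat2. Over all settings tried it ran from 6.29e-07 to 0.732 for Stat4, from 0.00345 to 0.974 for Stat2 and from 0.0236 to 1.00 for Stat5a.

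The same test on the second gene table called 2 of the 6 members, Stat6 (adjusted p = 0.000168) and Stat5b (0.0129), against 27.2% of the 10291 genes tested there. Stat3 did not pass there (adjusted p = 0.0705, range over settings 7.81e-41 to 0.0705), with 636, 670 and 640 CPM in libraries 1, 2 and 3. The CPM of this table given here were plain shares of its counts, not scaled by TMM, unlike the scaled expected counts above. Unscaled CPM of expected counts in libraries 1, 2 and 3 were 537, 549 and 530 for Stat4. They were 630, 722 and 618 for Stat5b and 602, 653 and 559 for Stat3. The order of libraries on either scale of expected counts did not hold for these members in the second table. Stat4, at 720, 727 and 746 CPM, was highest in library 3, and Stat5b, at 481, 524 and 491 CPM, was lowest in library 1, as was Stat3. Library 3 remained lowest for Stat6 (584, 622 and 556 CPM), Stat2 (94.5, 92.9 and 82.5 CPM) and, by a small margin, Stat5a (306.8, 287.1 and 286.9 CPM).

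**Figure D3:**
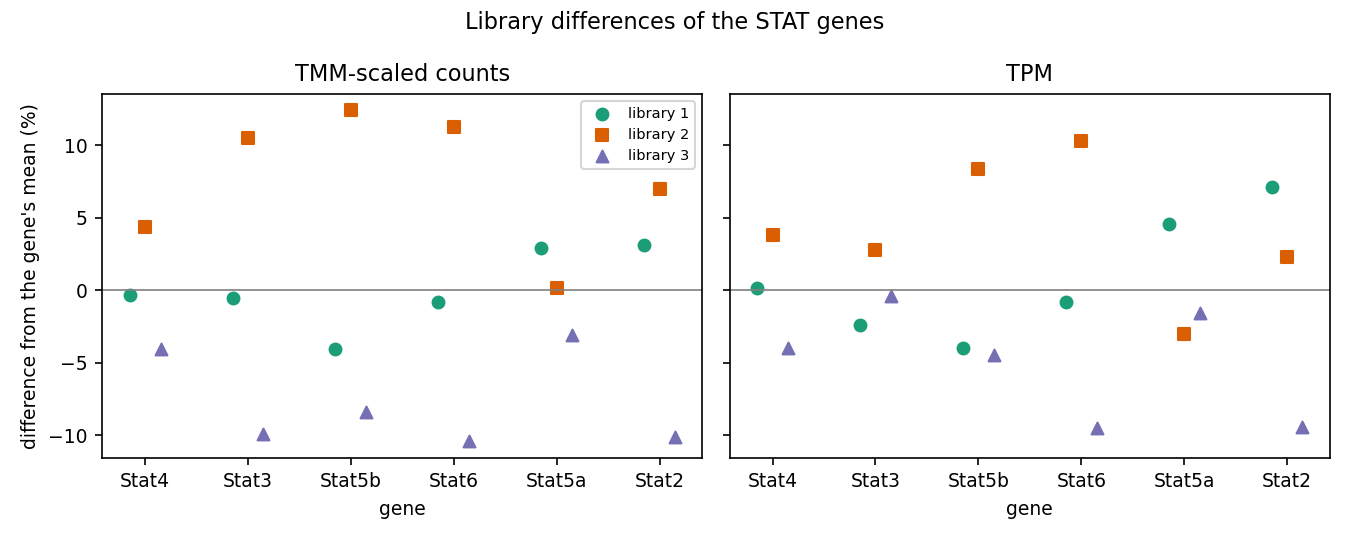
Difference of each library from the gene's mean over 3 libraries, in percent, for counts scaled by TMM (left) and for TPM (right). Library 3 is the lowest of the 3 for every member in scaled counts, while in TPM library 3 lies between the other 2 for Stat3 and Stat5a.

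Scaled counts and TPM ordered the libraries differently for 3 of the 6 members. Library 3 was the lowest in scaled counts for Stat5a and the middle one in TPM, where library 2 was lowest, and Stat2 was highest in library 2 in scaled counts and in library 1 in TPM. For Stat3, library 3 was the lowest in scaled counts, at 545 CPM, but the middle one in TPM, at 294. The effective length of Stat3 was 3410, 3620 and 3060 bases in libraries 1, 2 and 3, and retained-intron models took 3.72%, 3.01% and 6.32% of its counts. The median retained-intron share over the same 5602 genes was 7.45%, 6.91% and 8.08%, also highest in library 3 and lowest in library 2. The part of this shift in the Stat3 result was not tested.

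Transcript composition differed between libraries for 5 of the 6 members by a chi-square test of transcripts by library, Benjamini-Hochberg adjusted over 9779 genes, against 84.5% of all genes tested. The adjusted p was 1.29e-87 for Stat3, 2.63e-43 for Stat5a, 2.93e-38 for Stat5b, 4.32e-11 for Stat4, 7.61e-05 for Stat6 and 0.0616 for Stat2. With each chi-square divided by its median inflation of 9.34, the 3 genes of the chromosome 11 cluster passed, against 13.4% of all genes: Stat5b (0.00596), Stat3 (0.00697) and Stat5a (0.0433). Stat4, Stat6 and Stat2 then had adjusted p of 0.870, 1.00 and 1.00. The 84.5% and 13.4% cover genes of all depths, and no share for genes with a mean count of at least 500 was computed for this test. In Stat5a, the coding model Stat5a-201 was given 86.55, 0 and 0 counts in libraries 1, 2 and 3. The posterior SD of its count was 87.25, 34.91 and 55.36, so its level cannot be told from 0. With posterior mean counts and no division by inflation, the adjusted p of Stat5a by the composition test was 4.86e-17. How far the Stat5a result rests on Stat5a-201 was not tested. The call of Stat6 was lost without library 1 (adjusted p = 0.161, range over settings 0.000105 to 1.00), and Stat2 gained one without library 3 (0.0294, range 0.00476 to 1.00). This test takes estimated counts as observed, so assignment uncertainty between models, which for a single model reached 8.37% of the gene count in Stat2 and 6.76% in Stat5a, is not in its p-values.

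The other genes of the pathway were examined as 77 genes in 15 lists. Of the 77, 65 reached 1 TPM, 56 reached 10 TPM and 29 reached 100 TPM, where 47.7%, 34.2% and 7.82% of protein-coding genes did. Their median was 42.6 TPM, below the 223 TPM of the 6 STAT genes. By the library test 50 of the 67 genes with enough counts passed, beside 57.2% of all genes and 72.9% of those with a mean count of at least 500. After division by inflation 10 passed, beside 4.45% and 10.6%.

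All 4 JAK kinases exceeded 10 TPM, and Jak1 at 538 ± 13.8 TPM was the only one above Stat4, with Jak2 at 155 ± 5.97 TPM. Of the 3 Stat2-linked receptor genes, Ifnar1 (189 ± 11.5 TPM) and Ifnar2 (149 ± 4.62 TPM), the chains of the type I interferon receptor, were several-fold above Stat2, while the interferon lambda chain Ifnlr1 was at 0.0700 ± 0.0693 TPM. Irf9, the DNA-binding partner of Stat2, stood at 40.7 ± 0.293 TPM and exceeded Stat2 in every library.

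For Stat3, 6 of 9 receptor genes reached 1 TPM, led by Il21r (593 ± 45.8 TPM) and Il27ra (183 ± 7.58 TPM). Il23r, Lifr and Osmr, chains for interleukin 23, leukaemia inhibitory factor and oncostatin M, stayed under 0.400 TPM in the mean. For Stat4, Il12rb2, the signalling chain of the interleukin 12 receptor, stood at 109.5 ± 2.41 TPM, and Il23r was the 1 of 3 receptor genes under 1 TPM. For Stat5a and Stat5b, 5 of 6 receptor genes reached 10 TPM, led by the common gamma chain Il2rg (1577 ± 109 TPM), Il7r (823 ± 15.5 TPM) and Il2rb (570.2 ± 14.0 TPM), with Il9r at 0.447 ± 0.200 TPM. For Stat6, Il4ra stood at 419 ± 36.0 TPM, and Il13ra1, which forms the other interleukin 4 receptor, had 1 count over all libraries.

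Genes that restrain the pathway were detected in every class. All 8 SOCS genes, whose products block JAKs or receptors, reached 1 TPM, led by Socs3 at 420.4 ± 30.6 TPM and Cish at 124 ± 0.947 TPM. All 4 PIAS genes, which encode SUMO ligases that bind STAT proteins, reached 10 TPM, led by Pias1 at 106 ± 12.5 TPM. All 5 phosphatase genes reached 10 TPM, led by Ptprc (1543 ± 45.4 TPM), Ptpn6 (231 ± 11.5 TPM) and Ptpn1 (167 ± 18.2 TPM).

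Known target genes of the 6 factors differed widely in level. The Stat4 list had the highest median of the 5 target lists, 163 TPM, with 8 of 8 genes at 1 TPM or more and Ifng at 612 ± 31.4, Tbx21 at 248 ± 23.2 and Il18r1 at 244 ± 17.4 TPM. In the Stat5a and Stat5b list 9 of 9 genes passed 1 TPM, around a list median of 54.0 TPM, with Ccnd2 at 421 ± 16.7, Pim1 at 302 ± 62.4 and Bcl2 at 143 ± 6.01 TPM. The Stat3 list had 7 of 9 genes and a median of 52.6 TPM, with Batf at 672 ± 34.5 TPM and the cytokine gene Il17a, with 3 counts over all libraries, under 1 TPM.

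In the Stat6 list 4 of 6 genes passed 1 TPM, around a list median of 21.015 TPM, led by Il4ra, with the cytokine genes Il4 at 0.770 ± 0.419 TPM and Il24 at 0.0600 ± 0.104 TPM. The Stat2 and Irf9 list had 7 of 9 genes and the lowest median, 6.19 TPM. Within it Irf7 stood at 349 ± 25.5 TPM, and Mx2 and Oas2 were under 1 TPM. These targets answer to other factors as well, and RNA levels do not measure STAT phosphorylation.

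**Figure D4:**
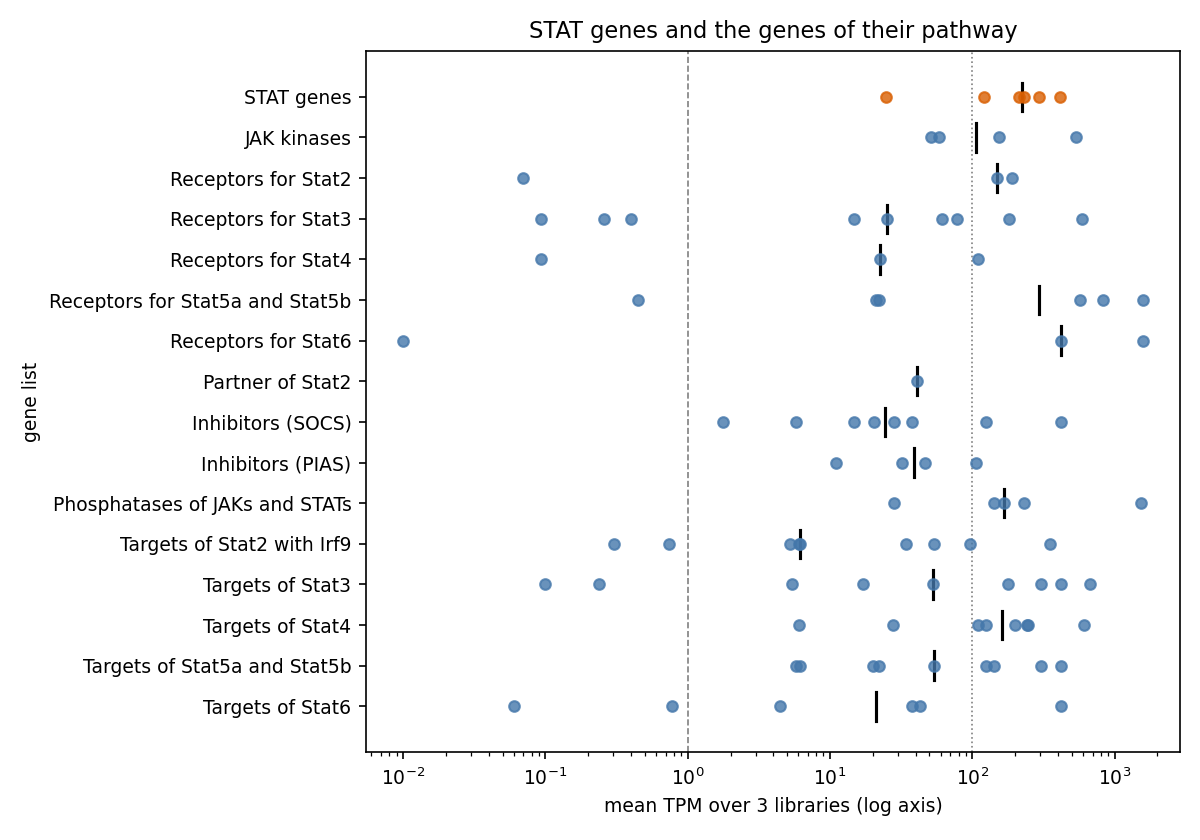
Mean TPM over 3 libraries (log axis) of the 6 STAT genes and of each gene in 15 pathway lists, 1 point per gene, with a black bar at each list's median; the dashed and dotted lines mark 1 and 100 TPM. Of the 6 STAT genes 5 lie above 100 TPM, and receptor lists hold both genes above 100 TPM and genes under 1 TPM.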

How the data were processed

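RNA was measured in 3 technical-replicate libraries of 1 mouse, which form 1 group, and no comparison between conditions is possible. Per the labels, RNA was sheared to fragments of 100 to 300 bases and the assembly was mm10. The authors deposited gene and transcript tables with expected counts (estimated counts), TPM and FPKM on GENCODE M21, per the file headers and the text notes deposited beside them, and a table of whole-number counts per gene on GENCODE M4. The percent of a gene per transcript in the deposited tables was replaced by shares computed from counts. The sources used here name no aligner, quantifier, version or strand setting. The posterior SD of each count and the effective length were deposited too.

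Rows that name no mouse gene held 0.188%, 0.579% and 0.240% of counts in libraries 1, 2 and 3 and stayed out of library sizes and tests. Deposited TPM was averaged over libraries. For each gene with at least 30 counts in all, whole-number roundings of the expected counts entered a chi-square test of equal shares between libraries, given TMM effective sizes. A quasi-likelihood fit with edgeR was not possible, since a comparison of single libraries leaves no residual degrees of freedom. Transcript composition was tested by chi-square over transcripts with at least 10 counts, in genes with 2 or more. P-values were Benjamini-Hochberg adjusted over all genes, with a threshold of 0.05. The tests were tested on simulated data with counting noise only. That simulation does not cover the inflation or the assignment uncertainty seen in these libraries. Dividing by the median inflation, other sizes and filters, DESeq2 size factors, other units and leaving out each library were the alternatives. Intervals and floors cover counting error only.

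Sequences came from the GENCODE M21 transcripts and, for promoters, from the RefSeq table (GRCm38.p6), where all 6 members matched by symbol. The members, the pathway lists and the rules were chosen with earlier results of these data known. Named were the 6 members, up to 3 genes per list at 100 TPM or more (or else the highest), low members under 1 TPM of receptor, SOCS and target lists, transcripts with 5% or more of counts, beta forms and the gene nearest in level. A few genes within that rule or the marker lists are not reported here. Genes named outside that rule (the cell type markers, Gm28177, Gm3940, Nab2, Isg15, and the minor models) were chosen after their values were seen. Library sizes were computed in R 4.3.3 (edgeR 4.0.16, DESeq2 1.42.0). Tests ran in Python 3.11.15 under scipy 1.17.1, tables in pandas 2.3.3 and numpy 2.4.6, plots in matplotlib 3.10.9.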

Additional observations from a re-analysis of the deposited data

How the results depend on the processing

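The median level of the 6 genes, 223 TPM, became 192 in posterior mean TPM, 192 over coding models only (chosen after seeing the data), 135 in FPKM and 135 in posterior mean FPKM, the last 2 being another unit, and ran from 212 to 230 TPM when each library was left out. The 15 pairs kept their order except in CPM, which is not per length. In CPM of expected counts the log2 ratio fell below 0 for Stat4 to Stat3 (-0.16), Stat4 to Stat5b (-0.28) and Stat3 to Stat5b (-0.12), and in CPM of the second gene table for Stat5b to Stat6 (-0.24). The library test called 7973 genes, 621 after division by inflation, 2804 in the second gene table and 3546 to 5516 when 1 library was left out. The composition test called 8265 genes, 1306 after division by inflation and 6489 to 6746 when 1 library was left out. The share of the Stat3 beta model, 1.42% of counts, was 0.788% of TPM, 0.809% of posterior mean TPM and 1.32% to 1.58% of counts when each library was left out. The number of pathway genes at 1 TPM or more ran from 56 to 67 over the settings, the lowest with 10 TPM as the limit. Of 385 values under other settings, for 49 results, 4 changed direction, and the causes were not tested beyond what each setting's construction shows. No paired comparison between conditions was possible because the 3 libraries form 1 group, while ratios between members were taken within each library. Depth limited genes with few counts, such as Il13ra1, whose level cannot be told from 0.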
